A study of Homo sapiens with 4 samples.

Results

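Trametinib, an inhibitor of the kinases MEK1 and MEK2, was compared with no drug in cells labelled MIA PaCa-2, an established human pancreatic ductal adenocarcinoma (PDAC) line. The trametinib library came from cells given 5 µM trametinib for 12 h, the control library from cells without drug, and both carried the genotype label WT. The control was not described further, and whether it received a solvent is not given in the sources used here. Of the 16834 genes in the table, 11222 had at least 50 estimated reads in at least 1 of these 2 libraries and were compared, which was 66.7% of the table. Beside them stood a library of cells given 1 µM neobractatin (NBT), a natural compound of Garcinia bracteata, and a library of cells given both drugs, referred to as the combination. The combination and NBT libraries also differ by trametinib and share no library with the main pair, and 11028 of the 11222 genes reached 50 reads in that pair too.

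Each condition was 1 library, so no difference had a replicate check and no p-value was computed. The libraries held from 18776212 estimated reads in the control to 19614763 in the combination, and the trametinib library held 18949915. Read numbers were scaled to these sums, 0.5 reads were added, and the log2 ratio of trametinib over control was taken. Each 95% Clopper-Pearson interval covers counting error only, treats PCR copies as if they were separate molecules, and holds no variation between cultures. In the text, a gene rose or fell when its log2 ratio was at least 1 in size, that is 2-fold. In bulk RNA, fewer cells of a kind and less of an RNA per cell cannot be told apart.

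The label MIA PaCa-2 did not match the reads in several genes for which the line is known, and these genes were picked after their values were seen. CDKN2A, a cell cycle inhibitor gene that the line is known to have lost by homozygous deletion, had 2643 reads in the control and 3524 with trametinib. CDH1, which encodes E-cadherin and is known to be low in the line, had 3912 and 4086 reads. VIM, which encodes vimentin and is known to be abundant in it, had only 202 and 425 reads, and ZEB1, a repressor of epithelial genes, had 84 and 64. The basal keratin gene KRT5 had 24906 and 67741 reads and the epithelial adhesion gene EPCAM 3502 and 3113. The NBT and combination libraries had the same features, with 2674 and 3187 reads of CDKN2A, 2539 and 2804 of CDH1 and 168 and 134 of ZEB1. The labels also give each library a cell line entry with a different number. The cells are therefore called here the cells labelled MIA PaCa-2. Acinar and islet, fibroblast, and leukocyte and endothelial marker lists had 1, 2 and 2 genes over the 50-read limit, and the values of the latter 2 are given with the markers.

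In the pathway that trametinib blocks, growth factor receptors load RAS with GTP, RAS engages RAF kinases, RAF phosphorylates MEK, and MEK phosphorylates the ERK kinases. Active ERK enters the nucleus, where it acts on ETS factors, on SRF with its partners and on AP-1, which is made of FOS and JUN proteins. Among the genes these factors switch on are brakes on the pathway itself, the DUSP phosphatases, which take the phosphate off ERK, and the Sprouty and SPRED proteins, which act nearer to RAS. In PDAC, where a RAS gene is commonly mutated, the pathway drives cyclin D, MYC and the growth and invasion of the cells.

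Trametinib left most genes within 2-fold of the control. The median log2 ratio of the 11222 genes was 0.06, the middle 50% lay between -0.16 and 0.28, and 80.7% were within 0.5 of 0. A total of 362 genes rose, which was 3.23% of those compared, and 261 fell, which was 2.33%, so that 5.55% passed 2-fold in either direction. A log2 ratio above 0 was seen in 57.7% of the genes and one below 0 in 42.3%, and the counts of each gene list are read against these shares. The whole interval lay past 2-fold for 195 of the former and 189 of the latter. At least 4-fold changes were seen in 68 higher and 78 lower genes, and 8-fold ones in 21 and 24. The risen genes had a median of 83 control reads and 249.5 trametinib reads, and the fallen genes 711 and 232, a difference that the choice by ratio itself sets in part. Of the risen genes 137 had under 50 reads in the control and so were compared only through their trametinib reads, as were 60 fallen genes only through their control reads. When the genes were split by mean level into 4 parts of equal size, 8.45% rose and 3.88% fell in the lowest part, and 1.18% and 1.43% in the highest. Genes with 50 to 59 reads in their higher library numbered 198 with a median log2 ratio of 0.16, and the 222 genes with 40 to 49 reads, just under the limit, had 0.22.

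**Figure D1:**
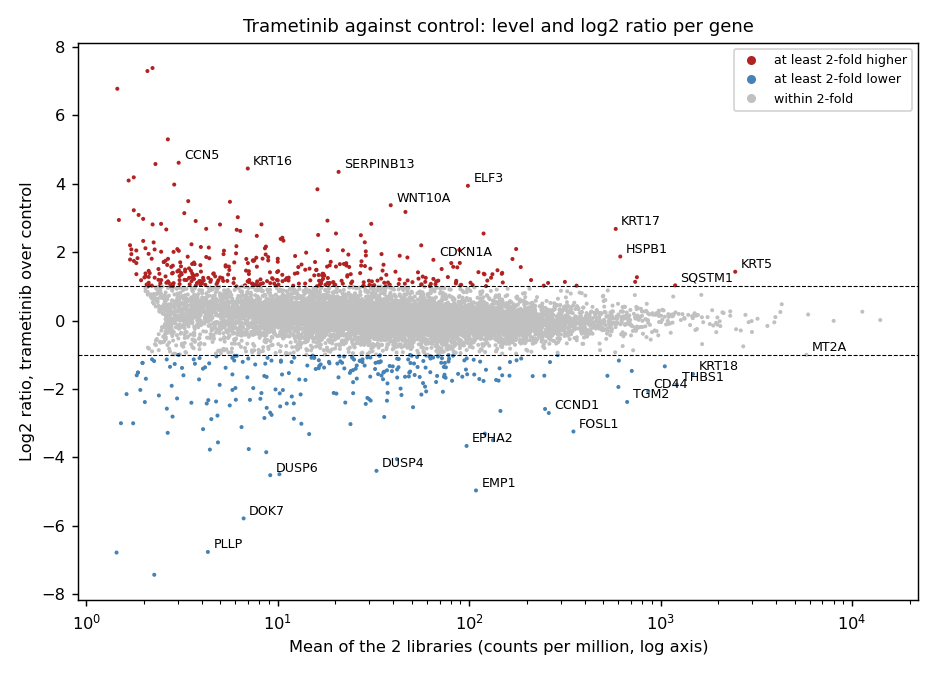
Each point is 1 of the 11222 genes, with the mean of the trametinib and control libraries in CPM (reads scaled to library size) on a log axis and the log2 ratio of trametinib over control. The 362 genes at least 2-fold higher are red, the 261 at least 2-fold lower are blue, and dashed lines mark 2-fold. EMP1, DUSP6 and FOSL1 lie far below the lines, SERPINB13, KRT16 and ELF3 far above, and most of the red points sit at low levels.

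The DUSP genes went both ways, with the deepest falls in DUSP6, DUSP4 and DUSP5. DUSP6, a cytoplasmic phosphatase specific for ERK, had 329 reads in the control, 14 with trametinib, 521 with NBT and 9 with the combination. Its log2 ratio of trametinib over control was -4.52, with an interval of -5.45 to -3.80. DUSP4, a nuclear phosphatase of ERK and JNK, went from 1175 reads to 56 (log2 ratio -4.39), and DUSP5, a nuclear phosphatase of ERK, from 401 to 55 (-2.87). DUSP10, which acts on the stress kinases p38 and JNK, rose instead, from 596 to 1313 reads (1.13). The other 4 DUSP genes stayed within 2-fold, from -0.86 for DUSP7 to 0.71 for DUSP8. In all, 3 of the 8 DUSP genes over the read limit fell and 1 rose, where 2.33% and 3.23% of all genes did.

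Of the 6 Sprouty and SPRED genes, 5 fell, where 2.33% of all genes did. The median log2 ratio of the 6 was -2.44 against 0.06 for all compared genes. SPRY4 had 169 reads in the control, 14 with trametinib, 295 with NBT and 16 with the combination. SPRY1 went from 93 to 13 reads, SPRY2 from 179 to 32, SPRED1 from 711 to 136 and SPRED2 from 1021 to 314. SPRED3, at -0.96, stayed just inside the 2-fold limit, with an interval of -1.44 to -0.51. DUSP6, SPRY4 and SPRY2 had more reads with NBT than in the control, and each had fewer in the combination than in either.

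The kinases themselves did not show changes of this size. None of the 23 genes of the RAS, RAF, MEK and ERK cascade passed 2-fold, near the 5.55% of all genes that did. The median log2 ratio of the 23 was 0.08. MAP2K1 and MAP2K2, which encode the drug's targets MEK1 and MEK2, had log2 ratios of -0.06 (interval -0.14 to 0.02) and 0.30 (0.23 to 0.37). MAPK3, which encodes ERK1, had 0.33. NRAS and RAP1A, genes of small GTPases, had 0.44 and 0.53, and SHC1, an adaptor of activated receptors, had the lowest value of the list at -0.43.

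Among AP-1 and other immediate early genes, 6 of 16 fell, against 2.33% of all genes, and 1 rose. FOSL1, which encodes the AP-1 subunit FRA1, fell from 11889 reads to 1268, with 12386 in the NBT library and 4000 in the combination, and its log2 ratio was -3.24 (-3.33 to -3.16). EGR1, a zinc finger factor induced within minutes of growth factor signals, fell from 802 to 99 reads (-3.03). IER3, an early response gene of survival signals, went from 4587 to 410 (-3.50), IER5 from 1072 to 428, FOS from 85 to 14 and FOSB from 111 to 42. The other AP-1 genes went different ways: JUN had a log2 ratio of -0.71, FOSL2 0.53, JUND 0.73 and JUNB 0.97. ATF3, a stress-induced partner of JUN proteins, rose from 718 to 2329 reads. FOS and FOSB had 102 and 87 reads in the combination against 84 and 88 in the NBT library, log2 ratios of 0.27 and -0.03.

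Of 14 ETS factor genes, 3 fell and 1 rose, against 2.33% and 3.23% of all genes. ETV5, of the PEA3 group whose transcription depends on ERK, had 367 reads in the control, 16 with trametinib, 777 with NBT and 23 with the combination. Its relative ETV4 and the SRF partner ELK3 also fell. ELF3, an ETS factor of epithelial differentiation, moved the other way, from 225 reads in the control to 3502 with trametinib, against 94 with NBT and 417 with the combination. Its log2 ratio was 3.94 (3.75 to 4.15), and ETS2, at 0.73, was the next highest of the list. ETS1, ELK1 and ELK4 had -0.51, -0.15 and -0.21.

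A further list of genes known to be driven by ERK held 15 measured genes, of which 11 fell and none rose. Of all genes 2.33% fell and 3.23% rose, and the median of the list was -1.58. EPHA2, a receptor tyrosine kinase of ephrins, had 3371 reads in the control, 268 with trametinib, 2413 with NBT and 247 with the combination (log2 ratios of the pairs -3.66 and -3.30). PHLDA1, a pleckstrin homology protein, went from 4113 to 420 reads and GPR3, a receptor coupled to Gs, from 155 to 11. The chromatin proteins HMGA1 and HMGA2 fell from 28259 to 11294 and from 1807 to 434 reads. TNFRSF12A, UPP1, TRIB1 and IL11 of the same list stayed within 2-fold, from -0.02 to -0.79.

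The stretches of promoter shown next are the 250 bases before the start of 4 genes of large change, shown with the motifs that SRF, AP-1 and CREB family factors are known to bind. EGR1 fell and has 2 CArG boxes, the kind of element that SRF binds. EMP1 had the deepest fall among genes with over 1000 reads in either library, EPHA2 is the ERK output just described, and SERPINB13 had the third largest rise among genes with at least 100 reads. Capitals mark the matches, and all sequences are those of RefSeq on GRCh38.p14, read 5′ to 3′ on the gene's strand.
EGR1 (chr5:138465229-138465478, plus strand, 2 CArG boxes): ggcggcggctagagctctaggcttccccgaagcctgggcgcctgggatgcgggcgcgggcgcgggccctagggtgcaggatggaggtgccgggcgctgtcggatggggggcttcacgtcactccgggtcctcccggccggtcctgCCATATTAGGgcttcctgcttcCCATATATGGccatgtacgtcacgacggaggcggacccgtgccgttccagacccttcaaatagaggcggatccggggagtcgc
EMP1 (chr12:13196476-13196725, plus strand, 2 AP-1 motifs): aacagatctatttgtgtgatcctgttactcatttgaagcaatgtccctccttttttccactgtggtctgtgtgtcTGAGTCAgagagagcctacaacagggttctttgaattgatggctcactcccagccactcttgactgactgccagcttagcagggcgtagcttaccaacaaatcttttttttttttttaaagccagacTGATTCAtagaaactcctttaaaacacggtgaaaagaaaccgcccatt
EPHA2 (chr1:16156070-16156319, minus strand, 1 CRE): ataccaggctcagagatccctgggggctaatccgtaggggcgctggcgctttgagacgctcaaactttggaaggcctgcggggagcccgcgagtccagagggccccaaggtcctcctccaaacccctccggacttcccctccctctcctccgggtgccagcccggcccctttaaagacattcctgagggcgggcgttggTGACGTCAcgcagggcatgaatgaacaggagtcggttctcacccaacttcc
SERPINB13 (chr18:63587093-63587342, plus strand, 1 AP-1 motif): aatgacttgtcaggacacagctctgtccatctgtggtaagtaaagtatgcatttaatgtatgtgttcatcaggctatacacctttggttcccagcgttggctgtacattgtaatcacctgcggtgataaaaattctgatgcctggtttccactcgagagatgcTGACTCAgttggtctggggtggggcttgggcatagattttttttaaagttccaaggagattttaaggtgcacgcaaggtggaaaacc

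The CArG boxes of EGR1 began 105 and 83 bases before the start, the AP-1 motifs of EMP1 175 and 48 bases, the CRE of EPHA2 51 bases and the AP-1 motif of SERPINB13 87 bases. RefSeq start sites were held for 9276 of the 11222 genes, with 13533 windows of 250 bases in all, 429 of risen and 325 of fallen genes. The AP-1 motif TGANTCA, searched on both strands, was in 7.69% of the windows of risen genes, 8% of those of fallen genes and 4.38% of all. The ETS motif CCGGAAG or its reverse CTTCCGG was in 2.33%, 4.62% and 15.1% in the same order. The CRE TGACGTCA was in 1.17%, 1.54% and 2.56%, the CArG box in 1.40%, 1.23% and 1.04%, the E-box CACGTG in 4.66%, 6.77% and 8.36%, and the GC box GGGCGG or CCGCCC in 56.9%, 60.3% and 64.3%. Fallen and risen genes had the AP-1 letters in nearly the same share of windows. These shares describe letters in a window, with several windows for some genes, and no share was tested.

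Ligands that feed the receptors also fell. Of 5 measured ligands of the EGF family 4 fell, against 2.33% of all genes: HBEGF from 147 reads to 40, TGFA from 1462 to 490, AREG from 692 to 281 and NRG1 from 2038 to 899, while NRG4 had a log2 ratio of 0.07. AREG and NRG1 had ratios of only -0.21 and -0.35 between the combination and the NBT library. Among 21 receptor tyrosine kinase and adaptor genes, 4 fell and 1 rose, against 2.33% and 3.23% of all genes. IRS1 and IRS2, the adaptors of the insulin and IGF1 receptors, fell from 1569 to 505 and from 726 to 316 reads. FGFR3 rose from 211 to 652 reads, with 99 in the NBT library and 121 in the combination. Just inside the limit were ERBB3, a partner of ERBB2 with little kinase activity of its own, at 0.93 and FGFR2 at 0.92, and DDR1, ERBB2 and EGFR had 0.75, 0.67 and -0.09.

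The study asked whether the AKT pathway responds to these drugs, and its protein assays covered a set of genes that can be read here as RNA. It also measured AKT1 mRNA by PCR and reported it lower with the combination. From its RNA sequencing it reported the PI3K/AKT pathway as enriched among genes that differed between the combination and the control. That pair of libraries is not the one compared here. From protein blots the study reported that trametinib alone activated AKT. AKT1, which encodes the kinase of that name, had 2899 reads in the control, 2829 with trametinib, 2866 with NBT and 2431 with the combination, and its log2 ratio with trametinib was -0.05 (-0.12 to 0.03). MTOR and RICTOR, the kinase of the mTOR complexes and the scaffold of mTORC2, had -0.18 and -0.22, and the IKK kinase genes CHUK and IKBKB -0.13 and -0.29. Of 28 genes of the PI3K, AKT and mTOR list only INPP4B passed 2-fold, which was 3.57%, near the 5.55% of all genes that did. INPP4B encodes a lipid phosphatase that acts on a PI3K product. It fell from 958 reads to 191, and from 882 with NBT to 170 with the combination.

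FOXO factors are held out of the nucleus by AKT. Of 15 FOXO genes and targets 14 had a log2 ratio above 0, with a median of 0.51, and 3 rose, where 57.7% of all genes were above 0 and 3.23% rose. They were CITED2, a coactivator regulator, from 1142 to 3080 reads, BCL6, a transcriptional repressor, from 55 to 134, and PINK1, a mitochondrial kinase, from 687 to 1445. CDKN1B, the gene of p27, had 0.77 and CCNG2, a cyclin of arrested cells, 0.97. Whether AKT activity had a part in these values was not tested.

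**Figure D2:**
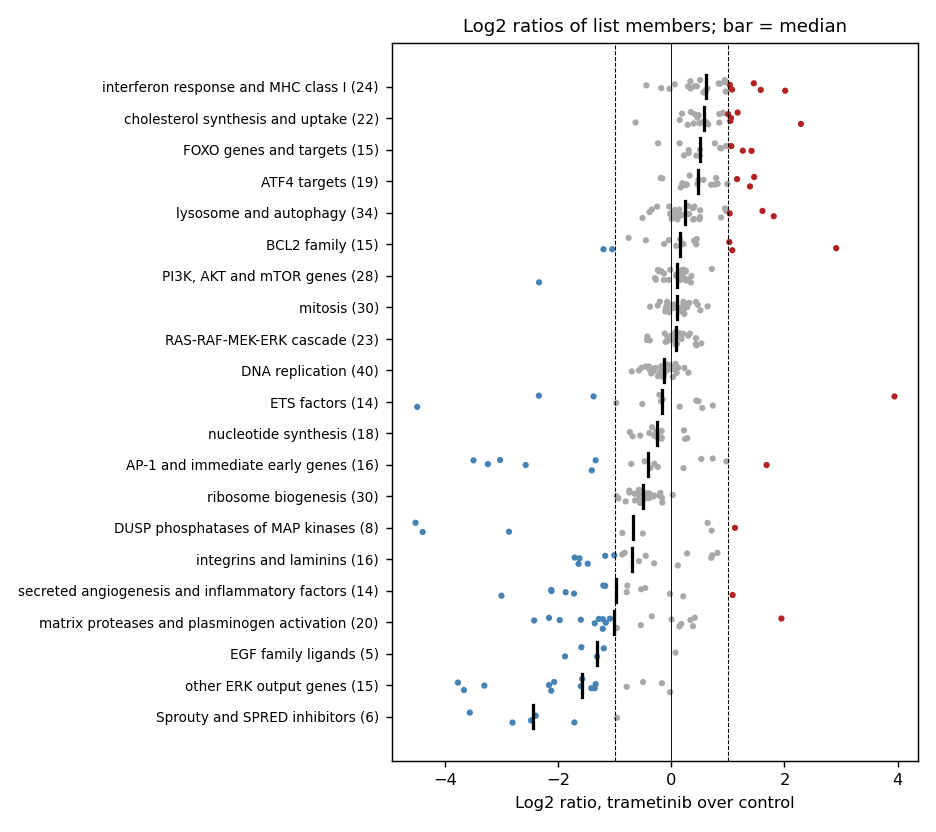
Each point is a gene of the list named at the left, with the number of measured genes in brackets, at its log2 ratio of trametinib over control. Black bars are medians, dashed lines mark 2-fold, and red and blue points lie past it. Sprouty and SPRED genes have the lowest median of the 21 lists drawn, at -2.44, and the interferon list the highest of them, at 0.61, while the kinase cascade, replication and mitosis lists lie within 2-fold.

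Of 24 genes of the G1 phase, when a cell commits to division, 2 fell and 2 rose, against 2.33% and 3.23% of all genes. CCND1, which encodes cyclin D1, the partner of CDK4 and CDK6, had 8472 reads in the control, 1315 with trametinib, 4693 with NBT and 323 with the combination, with log2 ratios of -2.70 and -3.87. CCND2 fell from 6976 to 2308 reads. The inhibitors CDKN1A (p21) and CDKN2B (p15) rose, from 550 to 1907 and from 106 to 426 reads. The other 20 genes of the list stayed within 2-fold, among them E2F1 at -0.10, CDK4 at 0.10 and CCNA2 at 0.07.

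At 12 h the genes of later phases were within 2-fold of the control. None of 40 replication genes and none of 30 mitosis genes passed 2-fold, near the 5.55% of all genes that did. The median log2 ratios of the lists were -0.13 and 0.10. In the replication list 32 genes were below 0, where 42.3% of all genes were, led by MCM10 at -0.70 and CLSPN at -0.57, and PCNA, the sliding clamp, had 0.07. Between the combination and the NBT library 38 of the 40 replication genes were below 0, where 46.3% of all genes were, with a median of -0.38, and PCNA had -0.78. MKI67 and CCNB1, markers of cycling cells, had -0.24 and 0.23 with trametinib.

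MYC, the growth-promoting factor whose protein ERK stabilises, fell from 913 reads to 170, with 1297 in the NBT library and 586 in the combination, and its log2 ratio was -2.43 (-2.68 to -2.20). Its relative MYCL rose from 31 to 68 reads, with an interval of 0.49 to 1.78. Of 30 genes of ribosome biogenesis, which MYC is known to drive, 29 had a log2 ratio below 0, against 42.3% of all genes, and none passed 2-fold. The median of the list was -0.51, and RRP12 and MYBBP1A were lowest at -0.96 and -0.94. Of the 18 nucleotide synthesis genes 15 were below 0 too, with a median of -0.26 and PFAS, an enzyme of purine synthesis, lowest at -0.73.

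In the BCL2 family, which sets the threshold of mitochondrial cell death, genes of both sides moved. BMF, a pro-death BH3-only protein, had 16 reads in the control, 125 with trametinib, 5 with NBT and 29 with the combination, and its log2 ratio was 2.91 (2.2 to 3.80). BIK and BBC3 (PUMA), of the same BH3-only kind, rose from 34 to 73 and from 83 to 171 reads, close to the 2-fold limit. The survival genes BCL2L1 (BCL-XL) and BCL2 fell from 2982 to 1311 and from 121 to 59 reads, and MCL1 had -0.75. BCL2L11, which encodes BIM, had 0.44. In this family 3 of 15 genes rose and 2 fell, against 3.23% and 2.33% of all genes.

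None of 17 caspase, gasdermin and related genes passed 2-fold, near the 5.55% of all genes that did, and their median was 0.21. GSDME, a gasdermin that forms pores once it is cut, had 1351 control reads, 898 with trametinib, 1849 with NBT and 1549 with the combination, and its log2 ratio was -0.60 (-0.73 to -0.48). CASP9 had 0.51, BAX, a pore former of mitochondria, had -0.12, and PARP1, a substrate of caspases, had -0.26. CASP6 was highest at 0.85.

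Among keratins, the filament genes of epithelia, 6 of 11 measured genes rose, against 3.23% of all genes, and 1 fell. Between the combination and the NBT library, 10 of the 11 were measured. Of these 10 none was at least 2-fold higher and 4 were at least 2-fold lower, against 1.83% and 2.03% of all genes. The median log2 ratio was 1.18 in the main pair and 0.16 in this other pair. KRT16, the keratin left out there, was under the read limit, with 9 reads with NBT and 45 with the combination. Its log2 ratio of the combination over NBT was 2.25 (1.26 to 3.53), so it was higher there too. KRT17 had 2946 reads in the control, 19093 with trametinib, 2420 with NBT and 4398 with the combination. KRT16 went from 11 to 253 reads, KRT14 from 62 to 338, KRT6A from 549 to 1253 and KRT5, the basal partner of KRT14, from 24906 to 67741. KRT15 rose from 651 to 3846 reads with trametinib alone and was lower in the combination, at 102 reads, than in the NBT library, at 330. KRT18 and KRT8, the pair of simple epithelia, went from 41334 to 14162 and from 63594 to 38101 reads, with log2 ratios of -1.56 and -0.75. Reads of KRT14, KRT16, KRT17 and KRT6A can be shared with near-identical relatives or pseudogenes. Their estimated counts were not whole numbers in at least 1 of the 2 libraries, and the same held for KRT5, KRT7, KRT8, KRT15 and KRT80.

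The squamous serpin SERPINB13, a protease inhibitor of stratified epithelia, had 36 reads in the control, 751 with trametinib, 29 with NBT and 313 with the combination (log2 ratio 4.35, 3.89 to 4.89). The 6 other clade B serpins over the limit stayed within 2-fold, from -0.44 for SERPINB8 to 0.87 for SERPINB1. Of the ductal and epithelial markers, MUC1, a membrane mucin, rose from 63 to 229 reads and SOX9, a factor of ductal progenitors, fell from 1183 to 169. The epithelial-mesenchymal list had 1 of 16 genes past the limit, where 5.55% of all genes were past it. That gene was VIM, at 1.06, and CDH1 and EPCAM had 0.05 and -0.18.

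**Figure D3:**
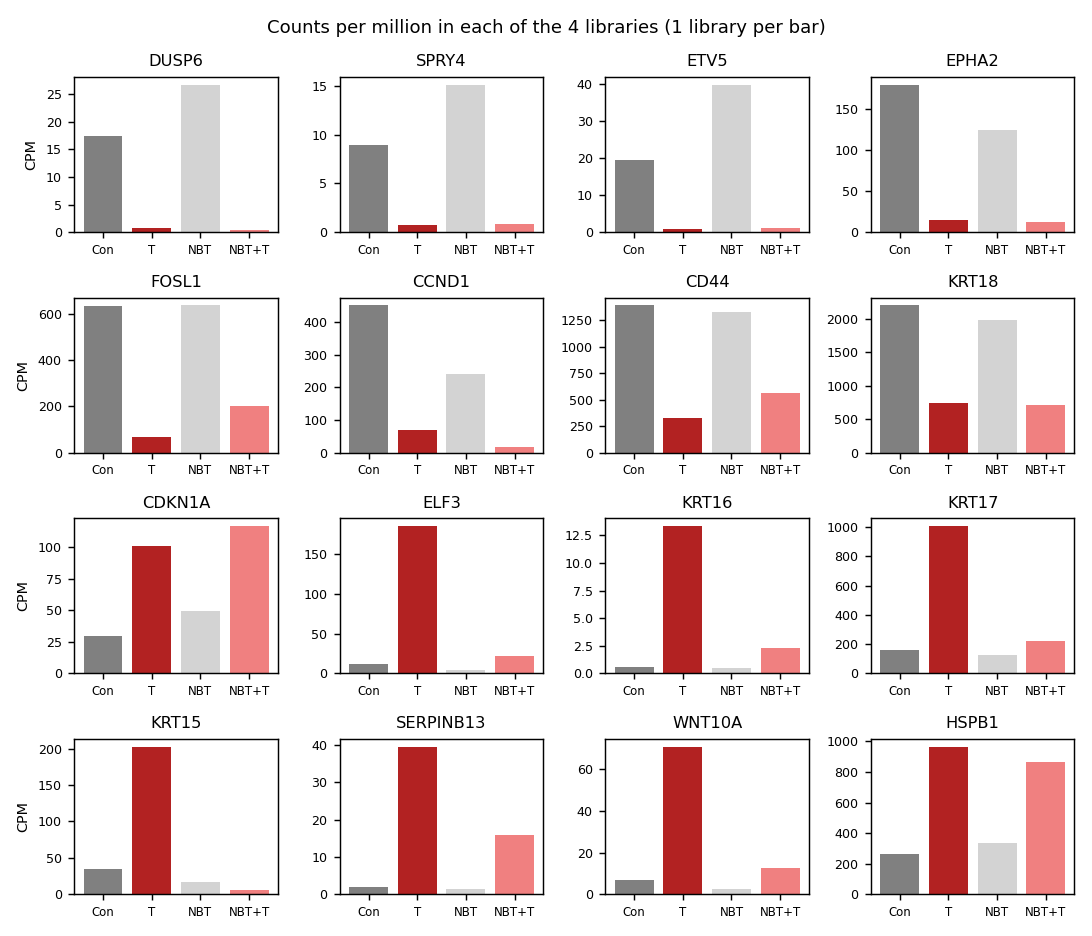
Bars give CPM of 16 genes in the control (Con), trametinib (T), NBT and combination (NBT+T) libraries, with 1 library per bar, no error bar and a separate axis from 0 for each gene. DUSP6, SPRY4, ETV5 and EPHA2 are low in both libraries with trametinib, KRT15 is high only in the trametinib library, and HSPB1 and CDKN1A are high in both.

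Adhesion and matrix genes fell in many cases, against 2.33% of all genes. Of 16 integrin and laminin genes 6 fell and none rose, with a median of -0.70. ITGA6, the partner of ITGB4 in hemidesmosomes, fell from 6079 to 1993 reads, ITGA2, a collagen receptor subunit, from 1090 to 395, ITGB5 from 2615 to 847, ITGA3 from 15718 to 7061, LAMA3 from 3246 to 1003 and LAMB3 from 7266 to 3647. LAMA5, ITGB8 and LAMB2 had 0.71, 0.82 and 0.72.

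Of 20 matrix protease and plasminogen genes 10 fell and 1 rose, against 2.33% and 3.23% of all genes. The median of the list was -1.02. PLAU and PLAUR, the urokinase activator of plasminogen and its receptor, fell from 4196 to 1398 and from 1726 to 389 reads, and PLAT from 223 to 57. MMP14, a membrane collagenase, had 6927 and 3019 reads. TIMP1, an inhibitor of matrix proteases, had 4280 and 1868, while its relatives TIMP2 and TIMP3 had log2 ratios of 0.38 and 0.42. MMP13, a secreted collagenase, rose from 40 to 157.

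Of 14 secreted angiogenesis and inflammatory factors 7 fell and 1 rose, against 2.33% and 3.23% of all genes. THBS1, a matrix inhibitor of angiogenesis, had 35644 reads in the control, 9858 with trametinib, 15574 with NBT and 4282 with the combination. VEGFA fell from 898 to 394 reads, VEGFC from 241 to 108, the placental growth factor PGF from 59 to 7, APLN from 251 to 58, IL1A from 373 to 114 and LIF from 756 to 175. CSF1, the macrophage growth factor, rose from 155 to 332. IL1B had -0.78 with trametinib alone and -3.50 between the combination and the NBT library, where it went from 151 to 13 reads.

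Signalling lists outside the ERK pathway were mixed, where 2.33% of all genes fell and 3.23% rose. Among 21 YAP and TEAD targets, CCN2, F3 and CRIM1 fell (F3, tissue factor, from 19490 to 7099 reads) and IGFBP3, a binder of insulin-like growth factors, rose from 17 to 196, while CCN1 had -0.30. Of 16 TGF-beta and BMP genes, 3 fell, FST and LTBP2 among them, and ID3 and INHBA rose. All 10 measured WNT targets and regulators were below 0, where 42.3% of all genes were, and their median was -0.59. TCF7 alone of that list passed the limit, from 395 to 188 reads. WNT10A, a ligand outside that list, was among the 10 largest rises, with 128 reads in the control, 1345 with trametinib, 44 with NBT and 244 with the combination.

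Genes of lipid, lysosome and interferon lists lay above 0 in most cases, as did 57.7% of all genes, and 3.23% of all genes rose. Of 22 genes of cholesterol synthesis and uptake, 21 had a log2 ratio above 0, with a median of 0.58, and 5 rose. They were TM7SF2, a sterol reductase, from 181 to 896 reads, HMGCS1 from 1435 to 3263, MVK from 684 to 1434, LSS from 1277 to 2656 and STARD4 from 458 to 928. With edgeR's TMM scaling MVK, LSS and STARD4 lay just under the limit. Between the combination and the NBT library the median of this list was 0.08.

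Of 34 lysosome and autophagy genes 27 were above 0 and 3 rose, against 57.7% and 3.23% of all genes. SQSTM1, which encodes the autophagy receptor p62, had 14676 reads in the control, 30287 with trametinib, 34880 with NBT and 86086 with the combination, and its log2 ratio of 1.03 dropped to 0.96 with edgeR's TMM scaling. GABARAPL1 rose from 252 to 778 and GPNMB, a lysosomal glycoprotein, from 83 to 295 reads. ULK1, the kinase that starts autophagy, had 0.95. In the interferon and MHC class I list 21 of 24 genes were above 0, with a median of 0.61. MX1 went from 21 to 87 reads, IRF9 from 170 to 514, PSMB9 from 35 to 98, PSMB8 from 96 to 199 and NLRC5, the activator of MHC class I genes, from 518 to 1100. B2M had 0.57.

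Among stress programmes, none of 16 unfolded protein response genes passed 2-fold, near the 5.55% of all genes, and HSPA5, the main chaperone of the endoplasmic reticulum, had -0.23. Of 19 ATF4 targets 17 were above 0 with a median of 0.48, where 57.7% of all genes were above 0. PCK2, SLC7A11 and DDIT3 of this list rose, from 352 to 981, 279 to 739 and 196 to 443 reads. These were 15.8% of the list, against 3.23% of all genes. Of 17 NRF2 targets HMOX1, heme oxygenase, rose from 121 to 382 reads and SLC7A11 as above, and the transporter ABCC3 fell from 241 to 79. Of that list 11.8% rose and 5.88% fell, against 3.23% and 2.33% of all genes. HMOX1 had 4825 reads in the NBT library and 44631 in the combination. The 19 p53 targets gave 4 rises (CDKN1A, BTG2, TP53I3 and BBC3) and 4 falls (PLK3, TNFRSF10B, AEN and GDF15), against 3.23% and 2.33% of all genes.

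Of 25 glycolysis genes 22 stayed within 2-fold. The 2 that rose were 8% and the 1 that fell 4%, against 3.23% and 2.33% of all genes. SLC2A3, a glucose transporter, fell from 722 to 209 reads, and PFKFB4, which makes an activator of phosphofructokinase, and ALDOC rose from 237 to 798 and from 22 to 74. GAPDH and LDHA had 0.02 and -0.14. No Kruppel-like factor gene of 11 passed the limit, near the 5.55% of all genes that did. Of 14 clock genes PER2 fell while DBP and TEF, output factors of the clock, rose close to the limit.

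The largest changes by ratio, among genes with at least 100 reads in the higher library, brought in genes outside the pathway lists. The 10 largest rises were CCN5, KRT16, SERPINB13, LOXL4, ELF3, ZSCAN31, C1S, IGFBP3, WNT10A and ALPP, in falling order from 4.62 to 3.18. CCN5, a matricellular protein, had 4 and 111 reads, and LOXL4, a collagen crosslinker, 6 and 103. ZSCAN31, a zinc finger gene, had 39 reads in the control, 571 with trametinib, 64 with NBT and 669 with the combination, and C1S, a complement protease, 10, 119, 31 and 321. ALPP, the placental alkaline phosphatase, had 173, 1585, 73 and 119, so that its ratio was 3.18 in the main pair and 0.69 in the other. ALPP shares most of its sequence with neighbouring phosphatase genes, and its reads were not whole numbers.

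The 10 largest falls were PLLP, DOK7, EMP1, DUSP6, ETV5, DUSP4, TNS4, SH3TC2, GPR3 and TMEM63A, from -6.76 to -3.76. PLLP, a membrane protein of the plasmolipin kind, had 161 reads in the control, 1 with trametinib, 156 with NBT and 1 with the combination, with an interval of -12.66 to -4.85. DOK7, an adaptor of the receptor kinase MUSK, had 245, 4, 195 and 40. EMP1, a small membrane protein of epithelia, had 3946, 127, 4570 and 334, and TNS4, a tensin of focal adhesions, 1484, 90, 761 and 85. In each of these 10 genes both libraries with trametinib were below both libraries without it.

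The largest changes in abundance were in genes that were already highly expressed. KRT5 gained most, from 1326 to 3575 CPM, and EEF1A1, SLC7A5, KRT17, FTH1, SQSTM1, ACTG1, RPS2 and HSPB1 were next. HSPB1, the small heat shock protein 27, went from 4946 to 18316 reads. EEF1A1, ACTG1 and RPS2 had log2 ratios of only 0.26, 0.25 and 0.18. MT2A, a metallothionein, lost most, from 7689 to 3851 CPM, a log2 ratio of -0.998 and so just within the limit. After it came KRT18, THBS1, KRT8, CD44, HMGA1, TGM2, PLEC, FXYD5 and PKM. CD44, the hyaluronan receptor, fell from 26090 to 6286 reads, TGM2, a transglutaminase, from 21035 to 4084 and FXYD5, an ion pump modulator, from 17907 to 4711.

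The combination and NBT libraries gave a second pair that differed by trametinib. There 205 of 11173 genes were at least 2-fold higher, which was 1.83%, and 227 at least 2-fold lower, which was 2.03%. Of the genes that rose in the main pair, 290 were measured in the second, and 278 of them had the same sign there and 114 passed 2-fold. Of the genes that fell, 254 were measured, 245 had the same sign and 153 passed 2-fold. The risen genes in common were 31.5% of the main list and 55.6% of the other, and the fallen ones 58.6% and 67.4%. Most changes were smaller beside NBT, in 251 of the 290 risen and 204 of the 254 fallen genes, with medians of 0.88 against 1.34 and -1.19 against -1.53. These genes were chosen by their values in the main pair, and the part of that choice in the smaller values was not tested. Across the 11028 genes measured in both pairs Pearson's r was 0.72 and Spearman's rho 0.63, a description over genes that share library depth and level.

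**Figure D4:**
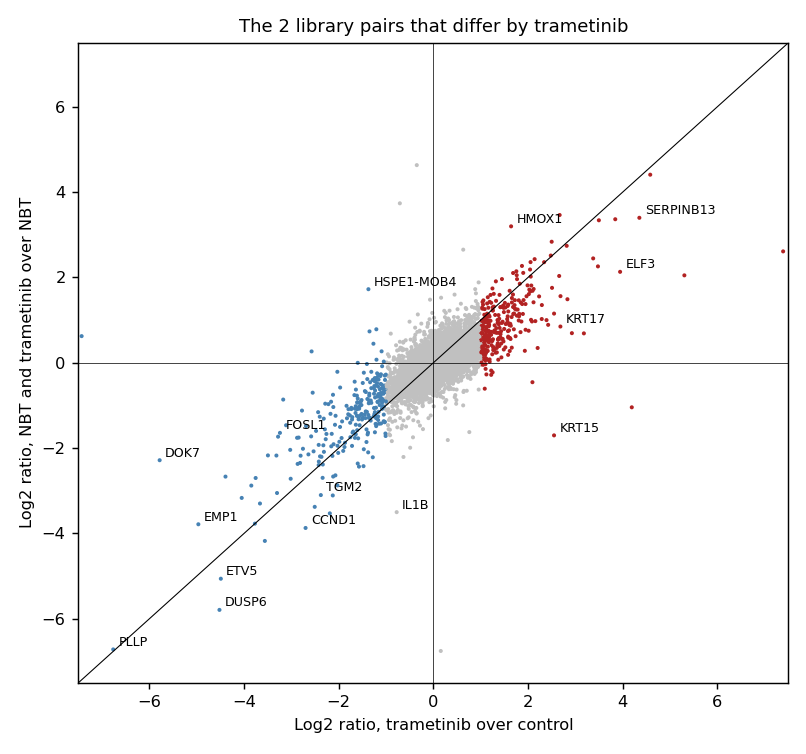
Each point is 1 of 11028 genes, with the log2 ratio of trametinib over control on the horizontal axis and of the combination over NBT on the vertical axis. Colours are as in the plot of level and ratio, and the diagonal marks equal values. DUSP6, ETV5 and PLLP are low in both pairs, and KRT15 lies at 2.55 in the first pair and -1.70 in the second.

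Several markers moved with the comparison, and their part in it was not tested. Both fibroblast markers over the limit were higher with trametinib, COL1A1 from 45 to 98 reads and PDPN from 217 to 471, while ACTA2 and THY1, under the limit, had 12 and 10 and 14 and 7 reads. The list's summed level went from 10.2 to 19.9 TPM, the deposited value per length. Of the leukocyte and endothelial list CD68 had 2054 and 1503 reads, and CD3E, a T cell receptor chain gene, had 0 reads in the control, 55 with trametinib, 0 with NBT and 29 with the combination. Against the limit of 3 reads that a count of 0 allows in the control, CD3E was at least 18.2-fold higher, and the counting interval of its log2 ratio began at 3.84. VWF and PTPRC, under the limit, had 3 and 25 and 8 and 17 reads, and LYZ and PECAM1 36 and 35 and 21 and 23. COL1A2, LUM and PDGFRB, and CDH5 of endothelial cells, had 0 reads in the control and at most 5 with trametinib. The summed level of the leukocyte and endothelial list went from 132.8 to 100.3 TPM, most of it CD68, and from 3.72 to 8.37 TPM without that gene.

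The deposited transcript values were compared as shares of each gene's reads. Of 8371 genes with at least 100 reads in both libraries and at least 2 transcripts, 1636 had a transcript whose share differed by at least 20 percentage points and 173 by at least 50, and the median of the largest change per gene was 9.03 points. In 1567 of the 1636 the gene itself stayed within 2-fold. The 5 genes with the largest change were INSR, ZBTB34, CDKN2AIP, ROBO1 and S100A14, each with a transcript at 100% of the reads in 1 library and 0% in the other. In INSR, the insulin receptor gene, all 322 reads were given to the short form in the control and all 384 to the long form with trametinib, where a count of 0 allows shares of up to 0.932% and 0.781%. In the NBT and combination libraries the long form had 13.0% and 39.1% and the short form 36.3% and 35.5%. The rest of the reads there were given to other transcripts of the gene. The program divides reads that fit several transcripts between them by estimation, so these limits do not cover the error of that division, which was not measured.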

How the data were processed

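RNA of 4 cultures, 1 library per condition, was sequenced on the BGISEQ-500 platform, and the titles gave each library's condition. Per gene and per transcript the authors deposited an estimated count that divides reads shared by several transcripts and is not normalized. They also deposited TPM, scaled to length and library sum, and FPKM, scaled to length and mapped fragments. The submitters' processing notes name Bowtie2 2.2.5, RSEM 1.2.8 and hg38, with no role given. These were rounded here, and 54.8% of the genes compared had a value that was not whole in at least 1 of the 2 libraries. A gene's reads were divided by the library sum with 0.5 reads added, and 2-fold was the limit. A count of 0 was taken to allow 3 reads, which is 0.160 CPM in the control and 0.158 CPM with trametinib.

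The genes and the 39 lists, with 796 genes, were chosen with earlier results of these data known, so no list is independent evidence. Of the listed genes, 647 passed the limit of 50 reads. Genes were named by these rules: the 10 largest rises and falls by ratio with at least 100 reads in the higher library, the 10 largest by CPM, list genes past 2-fold or well known, genes whose proteins the study measured, the 5 genes with the largest change in transcript share, and up to 5 genes past 2-fold in opposite directions in the pairs. CDKN2A, CDH1, VIM, KRT5, ZEB1, EPCAM and CD3E were added after their values were seen. With 1 library per condition no model was fitted and no test was made. The edgeR 4.0.16 TMM factors and DESeq2 1.42.0 size factors served only as other scalings. Other settings were the deposited TPM and FPKM values with a pseudocount of 0.1, 5 added reads, limits of 1, 10 and 200 reads, a log2 limit of 2, whole intervals past the limit and transcript counts summed per gene. The steps were tested on simulated data. Python 3.11.15, numpy 2.4.6, pandas 2.3.3, scipy 1.17.1, matplotlib 3.10.9 and R 4.3.3 were used. Promoters and gene types came from RefSeq tables on GRCh38.p14. Genes of the lists that are not in the table were not analysed here.
Some genes that these rules name are not reported here.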

Additional observations from a re-analysis of the deposited data

Results flagged for a closer look

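KRT15, HSPE1-MOB4 and TNFAIP8L2-SCNM1 passed 2-fold in opposite directions in the pairs that differ by trametinib. KRT15, a keratin of basal epithelial cells, had a log2 ratio of 2.55 (2.43 to 2.67) for trametinib over control and -1.70 (-2.04 to -1.38) for the combination over NBT. HSPE1-MOB4, a read-through of 2 neighbouring genes, had -1.37 and 1.72, with 473 reads in the control, 184 with trametinib, 90 with NBT and 301 with the combination. TNFAIP8L2-SCNM1, also a read-through, had 4.19 and -1.04, with 3, 64, 115 and 56 reads. The reads of read-through genes are shared with the genes they join. None of the 3 differences was tested, since each condition had 1 library.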

How the results depend on the processing

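No paired analysis was possible because each condition had 1 library, and no library could be left out. With at least 10 reads 740 genes rose and 392 fell in the main pair, and 493 and 382 beside NBT, and with at least 1 read the numbers were 1918, 1038, 1645 and 1045. With at least 200 reads 201 rose in the main pair and 114 beside NBT. A log2 limit of 2 left 68 and 78 genes in the main pair and 39 and 53 beside NBT, and requiring the whole interval past 2-fold left 195 and 108 risen genes. Under TMM, median-of-ratios, TPM, FPKM, 5 added reads and summed transcripts, every count stayed within 1.5 times, with 313 to 362 risen and 252 to 295 fallen genes in the main pair. The median log2 ratio of all compared genes shifted by -0.07 under TMM and by less elsewhere, and the share of calls that were higher, 58.1%, went to 51.5%. Under those 6 settings 15 of 146 single genes past 2-fold slipped under it in at least 1, and none changed sign. These were BBC3, BCL2, BIK, COL1A1, LSS, MVK, NLRC5, PINK1, PSMB8, ROR1, SQSTM1, STARD4, TEF, TP53I3 and VIM. Of 39 list medians, 2 changed sign, those of the G1 list (0.05, and -0.03 under TMM) and the MYC network (0.01 and -0.07). The largest change of a list median was 1.60, in the leukocyte and endothelial list with 5 added reads. That list had 2 genes over the read limit. Depth limits genes near 50 reads, where 18.2% of genes passed 2-fold.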
